A study of Mus musculus with 22 samples.

Results

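The 9 genes of IL-6 family and STAT3 signalling described here were chosen by name: the cytokine genes Il6, Lif and Clcf1, the receptor genes Il6ra, Il6st, Osmr and Lifr, the transcription factor gene Stat3 and the inhibitor gene Socs3. The choice was made with earlier results of these data known. All 9 were found among the 32858 genes measured, and all 9 passed the filter on low counts, as did 17131 genes in all. Il6, with at most 2 counts in any untreated kidney, passed it only through cisplatin-treated kidneys, where it was high. They were measured by RNA-Seq in 22 kidneys, 1 from each of 22 male C57Bl6/J mice aged 8 to 10 weeks. Vehicle alone went to 5 mice, KW6002 alone to 6, cisplatin alone to 5, and both drugs together to 6. Cisplatin, a platinum drug against tumours that injures the kidney tubule, was injected daily at 3 mg/kg on 6 days, and kidneys were taken 72 hours after the last injection. KW6002 (istradefylline), a blocker of an adenosine receptor, was injected daily at 3 mg/kg from day -5 to day 7, counted from the first cisplatin injection. The carrier of KW6002 served as vehicle, and no mouse carried a transgene or a deletion. The study asked whether blocking this receptor limits cisplatin injury of the kidney.

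Cytokines of the IL-6 family act through receptors that share the signalling chain encoded by Il6st, gp130. Binding brings Janus kinases together, which phosphorylate STAT3, and STAT3 then moves to the nucleus and switches on targets that include its own inhibitor gene, Socs3. In injured kidney the pathway is known for acute-phase genes made by the tubule itself. Messenger RNA was measured here, and neither phosphorylated STAT3 nor any cytokine protein was.

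Libraries held 26471762 to 40510754 counts, with a median of 32721214.5. Levels are given as CPM, counts scaled to the size of each library with TMM factors, and changes as log2 fold changes from an edgeR quasi-likelihood fit over all 17131 genes, with standard errors (SE) and Benjamini-Hochberg adjusted p-values. A gene passed at an adjusted p below 0.05. The mouse numbers in the labels fell into a 300s and a 500s series: 3 of 5 vehicle mice and 3 of 6 KW6002 mice carried numbers in the 300s, and all 11 cisplatin-treated mice carried numbers in the 500s. What the numbering stands for is not given in the sources used here. Values within the 500s series are therefore given where they end a call, and for some other results. The tissue label held: all 8 proximal tubule markers were detected in every group, and their summed level ran from 17300 to 18700 CPM with vehicle, from 2070 to 3600 CPM with cisplatin and from 7300 to 10900 CPM with both drugs. The 6 injured tubule markers, which include Lcn2, summed to 31.5 to 41 CPM with vehicle, 1410 to 2560 CPM with cisplatin and 393 to 815 CPM with both. In whole kidney, fewer cells of a type and less RNA per cell cannot be told apart. Replicate 6 of the co-treated kidneys held 50.8 CPM of 5 adrenal markers, where the other libraries held at most 3.46 CPM.

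Cisplatin changed all 9 genes: 8 were higher than with vehicle and 1, Lifr, was lower. Il6, which passed the filter only through cisplatin-treated kidneys, is counted here and in the comparisons below. Over all genes tested, 34.6% passed as higher and 35.9% as lower in this comparison. The median log2 change was 2.03 over the 9 genes and -0.01 over all genes. With KW6002 added to cisplatin, 7 of the 9 genes were lower than with cisplatin alone, and Stat3 and Lifr did not pass. In that comparison 27.2% of all genes were lower and 28.6% higher, and the median was -0.81 over the 9 genes against 0.01. Both comparisons use the same 5 cisplatin libraries. Without co-treated replicate 6, the library with adrenal markers, 6 genes passed between both drugs and cisplatin in place of 7, with Il6 the gene lost.

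**Figure D1:**
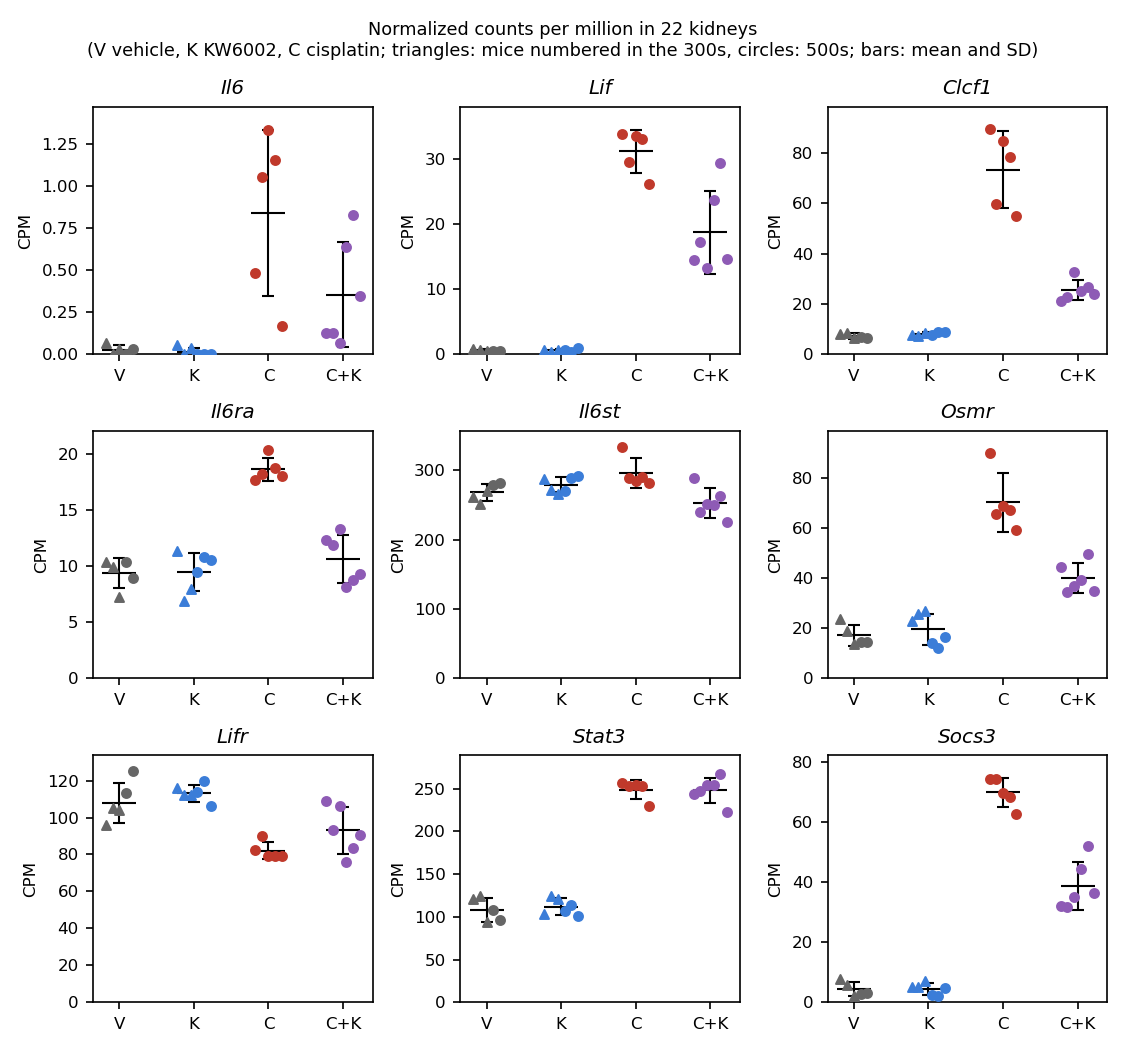
Normalized CPM of the 9 genes (vertical axes, linear from 0) in each of the 22 kidneys, by treatment (horizontal axes), with black bars for the mean and SD of each group and triangles for mice numbered in the 300s. The cisplatin points stand above the vehicle points in 7 panels without overlap, in Il6st by little, and below them in Lifr.

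Lif encodes leukaemia inhibitory factor, which signals through the products of Lifr and Il6st. The gene (ENSMUSG00000034394) lies on the plus strand of mm10 at chr11:4257557-4272514. It stood at 0.842, 0.642, 0.571, 0.599 and 0.488 CPM in the vehicle kidneys and at 33.7, 29.5, 33.4, 33 and 26.1 CPM in the cisplatin kidneys. The co-treated kidneys ran from 13.2 to 29.3 CPM with a median of 15.9, and the KW6002 kidneys from 0.316 to 0.996 CPM with a median of 0.637. Every cisplatin-treated kidney, with or without KW6002, was thus above every untreated one, and co-treated replicate 5, at 29.3 CPM, lay within the cisplatin range. Lif rose by 5.62 on the log2 scale with cisplatin (SE 0.25, adjusted p = 9.97e-15) and was lower by -0.73 with both drugs than with cisplatin (SE 0.17, adjusted p = 0.000973). With both drugs it remained above vehicle by 4.89 (SE 0.25, adjusted p = 3.9e-13).

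The stretch ahead of the Lif start is shown because it is the promoter of a cytokine gene whose treated and untreated kidneys did not overlap. It covers 239 bases upstream of the first annotated exon, at chr11:4257318-4257556 on the plus strand, from RefSeq's promoter windows on GRCm38.p6. Capitals mark a match to TGANTCA, the motif of AP-1, the factor formed by Fos and Jun proteins.
Lif: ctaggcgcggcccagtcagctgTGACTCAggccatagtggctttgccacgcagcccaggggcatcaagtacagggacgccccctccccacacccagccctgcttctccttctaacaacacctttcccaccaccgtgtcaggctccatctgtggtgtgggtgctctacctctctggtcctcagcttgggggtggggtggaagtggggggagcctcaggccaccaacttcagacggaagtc
Windows of 300 bases, from 250 before to 50 after a start site, were listed for 8 of the 9 genes, with 9 windows in all because Lifr has 2. There was none for Clcf1. TGANTCA, which reads the same on both strands, was found in 7.81% of all 32851 windows and in those of Lif, Il6 and Osmr. This motif was added after the sequences were seen. The Osmr match begins past the start site. Fos and Junb, whose products make AP-1, rose by 4.22 (SE 0.38, adjusted p = 1.16e-09) and by 2.93 (SE 0.22, adjusted p = 4.96e-11) on the log2 scale with cisplatin. Whether AP-1 acts on Lif, Il6 or Osmr was not tested.

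Clcf1, which encodes cardiotrophin-like cytokine factor 1, was lower in every co-treated kidney than in any cisplatin kidney. The gene (ENSMUSG00000040663) lies at chr19:4214238-4223490 on the plus strand. Its levels were 8.13, 8.7, 6.49, 6.76 and 6.44 CPM with vehicle and 89.5, 59.6, 85, 78.5 and 55 CPM with cisplatin. With both drugs they ran from 21.3 to 32.7 CPM (median 24.7), and with KW6002 from 7.44 to 8.93 CPM (median 8.01). The 3 levels, untreated, co-treated and cisplatin, did not overlap in any kidney. Clcf1 rose by 3.33 with cisplatin (SE 0.14, adjusted p = 3.41e-15), was lower by -1.53 with both drugs than with cisplatin (SE 0.12, adjusted p = 5.27e-10), and stayed above vehicle by 1.80 (SE 0.13, adjusted p = 1.32e-10). Annotated genes overlap it on the same strand (AC109138.7) and on the other strand (Gm26115), and whether counting used strand is not stated.

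Il6 itself was scarce. The gene (ENSMUSG00000025746, chr5:30013114-30019981, plus strand) encodes interleukin 6, an inflammatory cytokine. It had 2, 0, 1, 0 and 1 counts in the vehicle kidneys and 18, 42, 50, 43 and 6 counts in the cisplatin kidneys. The co-treated kidneys had 4, 4, 2, 22, 29 and 12 counts, and 4 of 6 KW6002 kidneys had none. Il6 was therefore above the untreated range in every cisplatin kidney, while cisplatin and co-treated kidneys overlapped: cisplatin replicate 5, at 0.17 CPM, lay below 3 of the 6 co-treated ones.

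Pooled over libraries, Il6 counts were 30.7 times those of vehicle with cisplatin (95% Poisson interval 11.7 to 114, counting error only) and 13.4 times with both drugs (5.02 to 50.6). The fitted log2 change with cisplatin was 4.75 (SE 0.82, adjusted p = 1.97e-05) and with both drugs 3.55 over vehicle (SE 0.89, adjusted p = 0.0017). Within the 500s these were 5.35 (adjusted p = 0.00472) and 4.15 (adjusted p = 0.0455). Between cisplatin and both drugs Il6 passed narrowly, at -1.20 (SE 0.49, adjusted p = 0.042). That call was lost without cisplatin replicate 2, 3 or 4 or co-treated replicate 1, 2, 3 or 6, with adjusted p from 0.0638 to 0.127, and by DESeq2 (adjusted p = 0.107). A further value moves with it: the 8 fat markers summed to 476 to 950 CPM with cisplatin and to 45.4 to 583 CPM with both drugs, and with their mean as a covariate the Il6 change was -0.79 (adjusted p = 0.455).

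Of the receptor genes, Osmr rose most. It encodes the oncostatin M receptor, which pairs with gp130, and lies at chr15:6813577-6874969 on the minus strand (ENSMUSG00000022146). Levels were 23.9, 18.8, 13.8, 14.5 and 14.7 CPM with vehicle and 90.1, 65.5, 68.6, 67.3 and 59.3 CPM with cisplatin, with 34.6 to 49.8 CPM (median 38.2) with both drugs and 12 to 26.8 CPM (median 19.8) with KW6002. Untreated, co-treated and cisplatin kidneys did not overlap. Osmr rose by 2.03 with cisplatin (SE 0.19, adjusted p = 3.09e-09), was lower by -0.81 with both drugs than with cisplatin (SE 0.18, adjusted p = 0.000454), and stayed above vehicle by 1.22 (SE 0.19, adjusted p = 7.04e-06). Among KW6002 kidneys the 300s series ran from 22.9 to 26.8 CPM and the 500s from 12 to 16.7 CPM. Within the 500s alone the rise with cisplatin was 2.26 (adjusted p = 6.91e-09) and the difference between both drugs and cisplatin -0.81 (adjusted p = 8.06e-06).

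With both drugs Il6ra did not pass against vehicle, and 3 of the 6 co-treated kidneys lay above the vehicle range. It encodes the chain that binds interleukin 6, and lies at chr3:89864059-89913196 on the minus strand (ENSMUSG00000027947), with Gm42809 on the other strand. Levels were 10.4, 9.91, 7.26, 10.4 and 8.95 CPM with vehicle and 17.7, 18.2, 20.3, 18.7 and 18 CPM with cisplatin, with 8.12 to 13.3 CPM (median 10.6) with both drugs and 6.92 to 11.3 CPM (median 9.99) with KW6002. Only the cisplatin kidneys stood apart from the other groups. Il6ra rose by 0.99 (SE 0.14, adjusted p = 1.38e-06) and was lower by -0.81 with both drugs than with cisplatin (SE 0.13, adjusted p = 1.78e-05). The difference between both drugs and vehicle was 0.18, with a 95% interval from -0.10 to 0.46 (adjusted p = 0.263). Scaling by library size alone, where the median gene of that comparison stands at 0.155, gave 0.34 (adjusted p = 0.0357).

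Il6st, which encodes the shared chain gp130 (ENSMUSG00000021756, chr13:112464070-112510086, plus strand), moved little. It stood at 262, 251, 270, 278 and 281 CPM with vehicle and 334, 289, 284, 290 and 282 CPM with cisplatin, with 225 to 289 CPM (median 250) with both drugs and 266 to 291 CPM (median 279) with KW6002. Cisplatin kidneys, with 282 CPM at the lowest, lay just above the vehicle ones, with 281 CPM at the highest, and overlapped the other groups. The change was 0.14 with cisplatin (SE 0.06, adjusted p = 0.0391) and -0.23 between both drugs and cisplatin (SE 0.06, adjusted p = 0.00181). The first call was lost without cisplatin replicate 1 (0.10, adjusted p = 0.143), without vehicle replicate 1, 2 or 3 (adjusted p = 0.0786, 0.105 and 0.0586), and within the 500s (0.08, adjusted p = 0.448).

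Lifr was the 1 gene that fell. Its product is the receptor chain for leukaemia inhibitory factor (ENSMUSG00000054263, chr15:7090614-7197489, plus strand). Levels were 95.8, 105, 104, 113 and 125 CPM with vehicle and 82.7, 90.1, 79, 79.4 and 79.4 CPM with cisplatin, with 76.2 to 109 CPM (median 92) with both drugs and 106 to 120 CPM (median 113) with KW6002. Cisplatin and vehicle kidneys did not overlap, and co-treated kidneys spanned both. Lifr changed by -0.40 with cisplatin (SE 0.08, adjusted p = 0.000131) and by -0.22 with both drugs over vehicle (SE 0.08, adjusted p = 0.0173). Between both drugs and cisplatin it was 0.18 (95% interval 0.02 to 0.34, adjusted p = 0.0527). It passed as higher with the label series as a covariate (0.18, adjusted p = 0.0456) and without cisplatin replicate 2 (0.22, adjusted p = 0.0318), co-treated replicate 4 (0.23, adjusted p = 0.00963) or 5 (0.21, adjusted p = 0.0304), or vehicle replicate 1 (adjusted p = 0.0439) or 5 (adjusted p = 0.0386). The call for both drugs over vehicle was lost without vehicle replicate 5 (-0.17, adjusted p = 0.0723). Within the 500s that change was -0.35 (adjusted p = 0.00949).

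Stat3, which encodes the transcription factor itself, rose to 249 CPM (SD 11.2, n = 5) with cisplatin and to 248 CPM (SD 14.7, n = 6) with both drugs. The gene (ENSMUSG00000004040, chr11:100885098-100939540, minus strand) has Stat5a on the other strand. It stood at 121, 124, 93.5, 108 and 96 CPM with vehicle and at 257, 253, 254, 253 and 230 CPM with cisplatin, with 223 to 267 CPM (median 250) with both drugs and 101 to 125 CPM (median 111) with KW6002. No treated kidney overlapped an untreated one, and the cisplatin range fell inside the co-treated range. Stat3 rose by 1.20 with cisplatin (SE 0.08, adjusted p = 3.26e-12) and by 1.19 with both drugs (SE 0.07, adjusted p = 9.37e-12). Between those 2 groups it differed by -0.01, with a 95% interval from -0.16 to 0.14 (adjusted p = 0.937).

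Socs3, the inhibitor that binds gp130 and Janus kinases, differed from Stat3. The gene (ENSMUSG00000053113) lies at chr11:117966079-117970047 on the minus strand. The 250 bases ahead of its RefSeq start site, at chr11:117969367-117969616, are shown because they hold the single match to a STAT motif among the members' windows, TTCTTAGAA, which is in capitals, 154 bases before that start site.
Socs3: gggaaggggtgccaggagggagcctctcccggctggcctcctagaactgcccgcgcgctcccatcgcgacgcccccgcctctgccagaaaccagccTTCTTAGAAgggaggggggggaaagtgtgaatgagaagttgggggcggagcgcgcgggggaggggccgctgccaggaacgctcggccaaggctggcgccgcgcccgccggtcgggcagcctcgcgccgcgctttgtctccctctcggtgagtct
In GENCODE this stretch lies upstream of the protein-coding transcript and inside an intron of a longer non-coding transcript, the last part of it overlaps the first exon of another non-coding one, and the match lies in no exon. TTCNNNGAA, which reads the same on both strands, was found in 8.3% of all windows, and the narrower TTCCNGGAA in 1.15% and in no window of these genes.

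Socs3 stood at 7.77, 5.89, 2.22, 2.82 and 3.25 CPM with vehicle and 74.4, 74.4, 69.5, 68.3 and 62.8 CPM with cisplatin, with 31.8 to 52 CPM (median 35.7) with both drugs and 1.97 to 7.1 CPM (median 4.88) with KW6002. Untreated, co-treated and cisplatin kidneys formed 3 ranges without overlap. Socs3 rose by 3.99 with cisplatin (SE 0.29, adjusted p = 2.78e-11), was lower by -0.86 with both drugs than with cisplatin (SE 0.23, adjusted p = 0.00326), and stayed above vehicle by 3.14 (SE 0.28, adjusted p = 2.75e-09). The fat markers move with this result too: with their mean as a covariate the difference between both drugs and cisplatin was -0.69 (adjusted p = 0.0594). The KW6002 kidneys split by series, with 5.04 to 7.1 CPM in the 300s and 1.97 to 4.71 CPM in the 500s. Within the 500s the rise was 4.52 (adjusted p = 2.74e-10) and the difference between both drugs and cisplatin -0.85 (adjusted p = 4.38e-05).

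Co-treated kidneys were still far from vehicle. Against vehicle, 6 of the 9 genes were higher with both drugs, Lifr was lower, and Il6ra and Il6st did not pass (Il6st did without co-treated replicate 1, at -0.13 with adjusted p = 0.0454), where 29.8% of all genes were higher and 29.9% lower. In mice without cisplatin, 0 of the 9 genes passed for KW6002 by edgeR, 0 had an unadjusted p below 0.05, and 0 passed by DESeq2. Over all genes 0.0175% passed as higher and 0% as lower in that comparison by edgeR, with 938 and 992 genes at an unadjusted p below 0.05 and 46 and 53 by DESeq2. The intervals of this comparison were wide for Il6 (-3.77 to 2.49) and Lif (-0.78 to 0.61), and narrow for Stat3 (-0.11 to 0.20) and Il6st (-0.06 to 0.17). The Il6 change was -0.64, and within the 500s -2.44 (adjusted p = 0.877).

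The KW6002 effect with cisplatin was tested against its effect without cisplatin. It was more negative with cisplatin for 4 of the 9 genes: Clcf1 by -1.68 (adjusted p = 1.88e-07), Osmr by -1.01 (adjusted p = 0.00288), Il6ra by -0.82 (adjusted p = 0.00131) and Il6st by -0.28 (adjusted p = 0.00722). Within the 500s 3 genes passed, and Il6st did not (-0.24, adjusted p = 0.109). Over all genes, 19.9% passed in this direction and 22.8% in the other. For Socs3 the difference was -0.88 (95% interval -1.65 to -0.10, adjusted p = 0.0629), and it passed with the label series as a covariate (-0.93, adjusted p = 0.0158) and without co-treated replicate 5, KW6002 replicate 4 or 5, or vehicle replicate 1 or 2 (adjusted p from 0.00916 to 0.0439). Lif, at -0.65 (adjusted p = 0.18), passed without co-treated replicate 5 (-0.82, adjusted p = 0.0423). Il6 stood at -0.56 with an interval from -5.40 to 4.27.

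**Figure D2:**
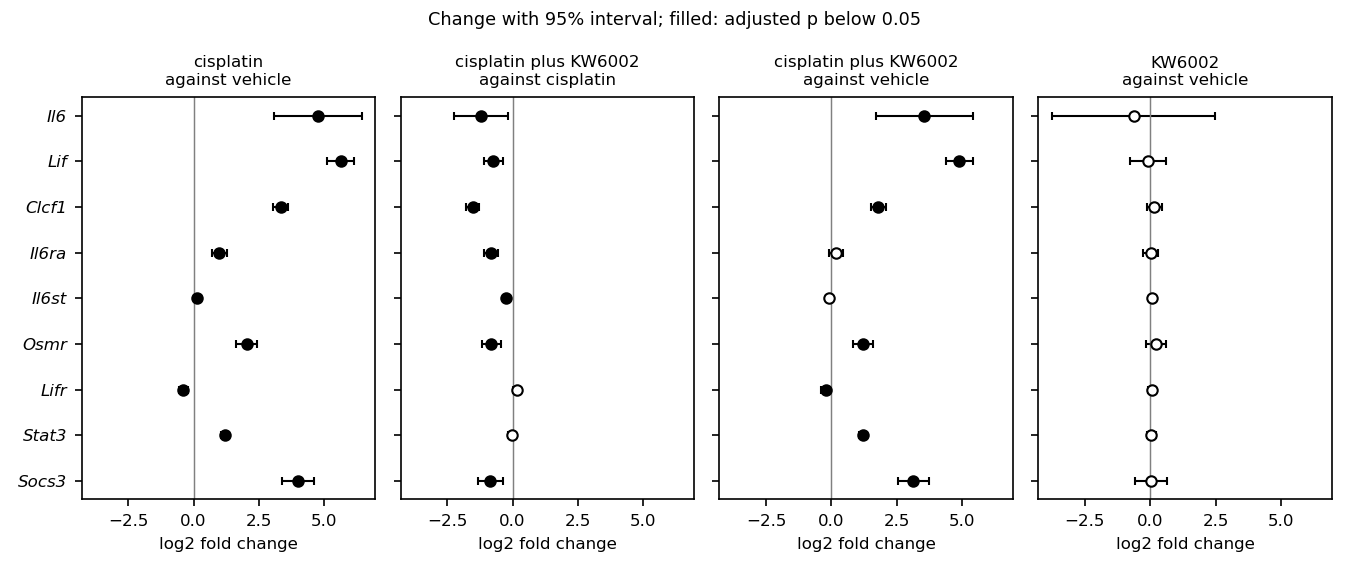
Log2 fold change with its 95% interval (horizontal axes) for the 9 genes (vertical axis) in 4 comparisons, filled where the adjusted p is below 0.05. All 9 points are filled for cisplatin against vehicle, 7 for both drugs against cisplatin, and none for KW6002 against vehicle, and Stat3 sits at -0.01 in the second panel.

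Levels were compared between genes per kilobase of annotated exon. With vehicle the order was Il6st at 24.2 CPM per kb (SD 1.1, n = 5), Stat3 at 11.4 (SD 1.47), Lifr at 10.1 (SD 1.01), Clcf1 at 1.92 (SD 0.274), Socs3 at 1.52 (SD 0.815), Osmr at 1.42 (SD 0.352), Il6ra at 1.09 (SD 0.153), Lif at 0.144 (SD 0.0303) and Il6 at 0.0108 (SD 0.0112). Stat3 and Lifr lay within their spread of each other, as did Clcf1, Socs3 and Osmr. With cisplatin Il6st stood at 26.7 (SD 1.92), Stat3 at 26.2 (SD 1.18), Socs3 at 24.2 (SD 1.67) and Clcf1 at 19.3 CPM per kb (SD 4.05), and the first 3 of these lay close to each other. Il6, at 0.345 CPM per kb (SD 0.202), remained the lowest of the 9. With both drugs Stat3 kept 26 CPM per kb (SD 1.54, n = 6), while Socs3 stood at 13.4 (SD 2.77) and Clcf1 at 6.69 (SD 1.06).

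**Figure D3:**
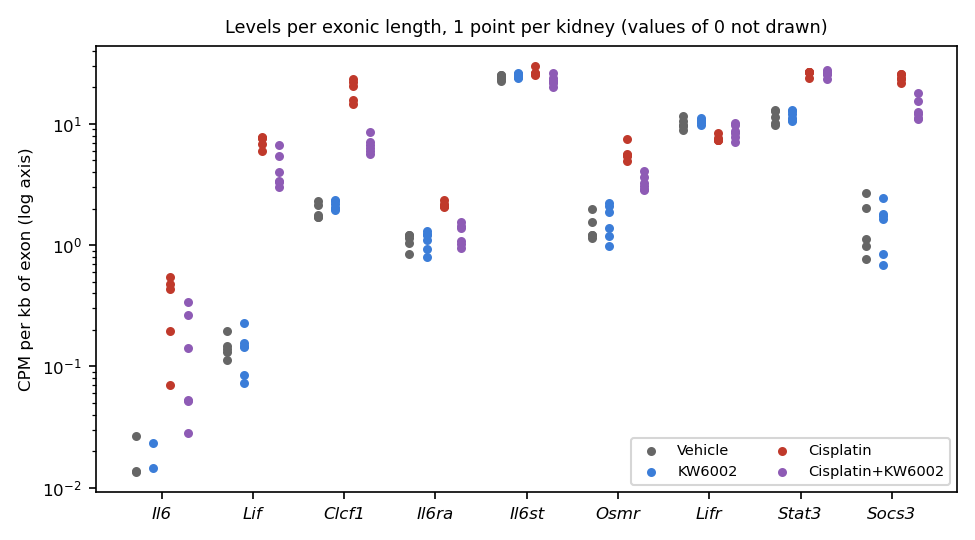
CPM per kilobase of exon on a log axis for the 9 genes, 1 point for each of the 22 kidneys, coloured by treatment, with values of 0 not drawn. Il6st moves little between groups on this axis, Lif and Socs3 climb with cisplatin, and Il6 is the lowest gene in every group.

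The other genes of the pathway were described from lists chosen by role, with earlier results of these data known. Among the other cytokine genes, Il11, which encodes interleukin 11, rose by 2.55 (SE 0.28, adjusted p = 2.52e-08) and differed by -0.93 between both drugs and cisplatin (SE 0.22, adjusted p = 0.00129). Ctf1, which encodes cardiotrophin 1, was at 0.14 with cisplatin (adjusted p = 0.245) and lower by -0.43 with both drugs than with cisplatin (SE 0.10, adjusted p = 0.000727), and Ebi3 was at -0.18 (adjusted p = 0.635) and lower by -0.88 (SE 0.33, adjusted p = 0.0279). Of the 4 other receptor genes, Il31ra rose with cisplatin by 1.90 (SE 0.35, adjusted p = 4.17e-05), and Il11ra1, the receptor for interleukin 11, fell by 0.89 (SE 0.06, adjusted p = 1.5e-11). Genes named here and below with log2 changes between -1 and 1 were named after their values were seen.

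Of the 12 kinase and relay genes, 6 were higher, 3 lower and 3 did not pass with cisplatin, where 34.6% of all genes were higher and 35.9% lower, and their median was 0.12. Jak3, a Janus kinase of blood cells, rose by 1.28 (SE 0.10, adjusted p = 1.38e-10), Jak2 by 0.51 (SE 0.05, adjusted p = 2.58e-09), and Jak1 was at -0.02 (adjusted p = 0.715). With KW6002 added, 5 were lower than with cisplatin, and Stat5a was higher by 0.31 (SE 0.08, adjusted p = 0.00159).

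Of 15 other inhibitor genes, 6 rose and 4 fell with cisplatin, near the 34.6% and 35.9% of all genes. With both drugs 5 were higher and 4 lower than with cisplatin, near the 28.6% and 27.2% of all genes. Cish, a feedback inhibitor known as a STAT5 target, stood at 16.7 to 72.6 CPM with vehicle, 64.2 to 68.2 CPM with cisplatin and 106 to 149 CPM with both drugs. It thus stood higher with both drugs than with cisplatin in every kidney, the reverse of Socs3, by 0.94 (SE 0.35, adjusted p = 0.0248), after a rise of 1.12 with cisplatin (SE 0.37, adjusted p = 0.00946). Socs2, of the same family, rose by 1.66 (SE 0.31, adjusted p = 5.23e-05) and was at 0.36 between both drugs and cisplatin (adjusted p = 0.286). Ptprt, a phosphatase gene that acts on STAT3, fell by 2.29 (SE 0.54, adjusted p = 0.000692) from a level of 0.381 CPM, and was higher with both drugs by 1.98 (SE 0.53, adjusted p = 0.00307). The cisplatin kidneys held at most 0.17 CPM of Ptprt, or 6 counts. It therefore passed the filter on low counts only through the other groups, where it was higher, and it is counted among the inhibitors above.

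The listed STAT3 targets rose with cisplatin in 28 of 33 genes tested, 1 fell and 4 did not pass, with a median of 2.15, where 34.6% of all genes rose and 35.9% fell. As the list was chosen with earlier results known, these counts describe it, and STAT3 activity was not tested. Saa1, an acute-phase serum amyloid gene, stood at 0 to 0.0648 CPM with vehicle, 5.36 to 7.27 CPM with cisplatin and 0.551 to 1 CPM with both drugs. Its pooled counts were 460 times those of vehicle with cisplatin (95% Poisson interval 127 to 3800) and 8.13 times those with both drugs (6.87 to 9.68). Lcn2, which encodes the injury protein neutrophil gelatinase-associated lipocalin and is on the injured tubule list as well, rose by 8.31 on the log2 scale (SE 0.33, adjusted p = 1.32e-15) and differed by -2.10 between both drugs and cisplatin (SE 0.22, adjusted p = 6.04e-08). Saa2 had no count in the 5 vehicle kidneys and 0.506 to 0.803 CPM in the 5 cisplatin kidneys. It passed the filter on low counts only through those cisplatin kidneys, and Saa1 only through kidneys given cisplatin with or without KW6002. Both are counted among the targets here and below. Vegfa, a growth factor for endothelium, was the gene that fell, by 1.32 (SE 0.07, adjusted p = 2.22e-13).

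With KW6002 added, 19 of the 33 targets were lower than with cisplatin, 2 were higher, Bcl3 and Vegfa, and 12 did not pass, with a median of -0.57, where 27.2% of all genes were lower and 28.6% higher. The lower ones included Saa1 at -3.01 (SE 0.26, adjusted p = 2.44e-09), Saa2 at -2.74 (SE 0.40, adjusted p = 1.02e-05) and Serpina3n, a protease inhibitor gene, at -2.53 (SE 0.48, adjusted p = 0.000106). The early response genes Fos, at -0.15 (adjusted p = 0.672), and Cebpb, at -0.11 (adjusted p = 0.815), did not pass, nor did Pim3, at 0 (adjusted p = 0.977). Other listed genes of these kinds stood lower with both drugs. Myc averaged 33.8 CPM with cisplatin and 17.9 CPM with both drugs, and Pim1 22.8 and 13.2 CPM. Fos, Junb, Cebpb, Pim3, Myc and Pim1 were likewise named after their values were seen. In mice without cisplatin, 0 of the 68 other pathway genes tested passed for KW6002 by edgeR, with 5 at an unadjusted p below 0.05 and 0 by DESeq2.

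**Figure D4:**
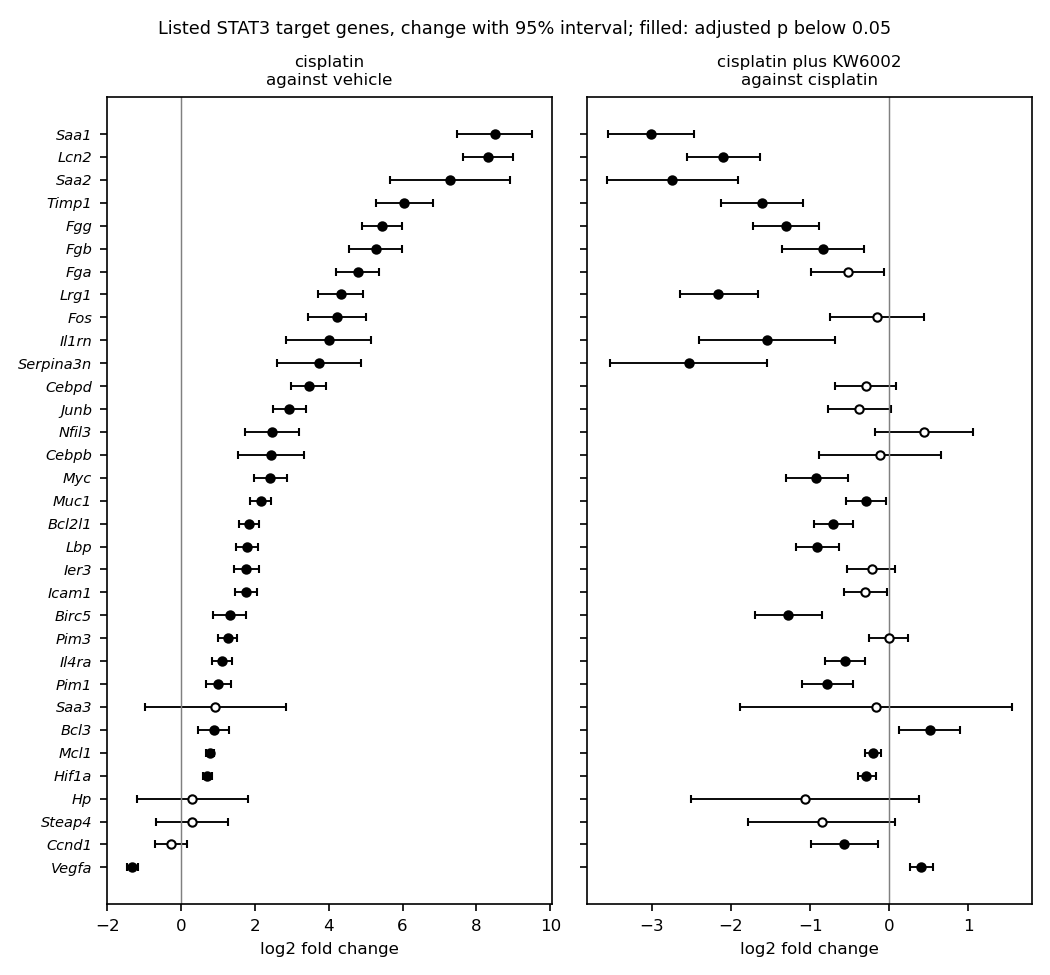
Log2 fold change with 95% interval (horizontal axes) of the 33 listed STAT3 targets tested (vertical axis, ordered by the cisplatin change), filled where the adjusted p is below 0.05. Saa1 leads with 8.49 on the left and falls to -3.01 on the right, while Pim3 sits at 0 on the right.

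Markers of other cell types were summed in the same groups. The 6 fibroblast markers summed to 171 to 370 CPM with vehicle, 703 to 908 CPM with cisplatin and 319 to 572 CPM with both drugs, and the 7 macrophage markers to 149 to 273, 179 to 241 and 99.5 to 150 CPM. Among the fibroblast markers Lum did not rise, with means of 6.95, 6.45 and 3.12 CPM in the same order. The macrophage markers went opposite ways: Cd68 averaged 18.5, 59.1 and 13.4 CPM in these 3 groups, and Csf1r 82.1, 35 and 41 CPM. The 5 general leukocyte markers summed to 39.9 to 82.3 CPM with vehicle, 48.5 to 67.5 CPM with cisplatin and 36.2 to 55.6 CPM with both. These sums overlapped between groups, but single markers went opposite ways. Ptprc ran from 12.7 to 22.8 CPM with vehicle and from 8.63 to 12.3 CPM with cisplatin, and Cd52 averaged 5.87 and 8.28 CPM. The 6 T cell markers summed to 3.05 to 6.57 CPM with vehicle, 1.04 to 1.84 CPM with cisplatin and 1.07 to 2.21 CPM with both. For the 4 B cell markers the sums were 1.62 to 3.27, 0.826 to 1.31 and 0.91 to 1.99 CPM. Of 5 T cell markers tested, 2 passed as higher and 1 as lower with both drugs than with cisplatin. Cd8a averaged 0.138 CPM with cisplatin and 0.48 CPM with both, and Cd4 0.909 and 0.429 CPM. The 6 neutrophil markers summed to at most 17 CPM in every group, and Mpo had at most 1 count in any kidney. Of the 4 tested, 1 passed as higher with cisplatin than with vehicle, and 2 as lower with both drugs than with cisplatin. Cxcr2 averaged 0.602 CPM with vehicle, 1.12 CPM with cisplatin and 0.368 CPM with both. The part of these cell types in the levels of the 9 genes was not tested.

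The genes most like each member were found by the root mean square (r.m.s.) difference of centred log2 CPM (prior count 2) over the 22 libraries, as a description. Stat3 was closest to Map3k9 (r.m.s. difference 0.072), a kinase gene at 10.5 CPM with vehicle, 23.6 with cisplatin and 23.9 with both drugs, and then to Sbno2 (0.123). Clcf1 was closest to Homer3 (0.202) and Capg (0.209), Socs3 to Aldh1a2 (0.383) and Cox6b2 (0.434), and Lif to 1700007K13Rik (0.325) and Cbr3 (0.413). Il6ra was closest to C1qtnf1 (0.15) and Arrdc4 (0.175), Osmr to Smim3 (0.228) and Uhrf1 (0.229), Il6st to Uggt1 (0.07) and Usp39 (0.076), and Lifr to Gabbr1 (0.103) and Ubfd1 (0.104). The members' own SD of log2 CPM over the 22 libraries ran from 0.119 (Il6st) to 2.675 (Lif), with 0.224 for Lifr and 0.614 for Stat3. The r.m.s. differences therefore do not rank how well members were matched. Il6, under 1 CPM on average, was left out.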

How the data were processed

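Poly(A) RNA of 22 mouse kidneys was sequenced from stranded libraries. Per the labels and the methods, the authors demultiplexed with bcl2fastq 2.17.1.14, mapped to mm10 with STAR, kept unique alignments and counted reads per gene with HTSeq 0.6.1p1 in union mode. The authors deposited these as raw whole-number counts for each gene and library. Another 66 columns without a name were not used. Symbols and positions are from GENCODE M21, and promoter windows from RefSeq on GRCm38.p6.

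Low genes were removed with filterByExpr, which asks for about 10 counts in at least 5 libraries, and 17131 genes stayed. A quasi-likelihood model with TMM factors and 1 mean per group was fitted in edgeR 4.0.16 (R 4.3.3), and p-values were adjusted over all genes by the Benjamini-Hochberg method, with the difference between KW6002 effects as an interaction. The fit was tested on simulated data. Named were the 9 members, at most 3 genes per list and direction with adjusted p under 0.01 and a log2 change beyond 1, and the 2 genes most like each member. Members and lists were chosen with earlier results of these data known. A few listed genes that the naming rule includes are not reported here. Marker lists were summed per library. Each mouse gave 1 library, and the 50 pairs of libraries within groups differed by more than sampling noise (chi-square per degree of freedom 2.94 to 49.6). Totals of 26471762 to 40510754 counts set the precision, and intervals on counts cover counting error only. Alternatives were DESeq2 1.42.0, other scalings and filters, the replicate block, the label series, fat markers and each library left out.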

Additional observations from a re-analysis of the deposited data

Results flagged for a closer look

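2 of the 36 groups of 5 or 6 libraries tested for a library far from the rest were marked, where chance marks about 1 in 20. Il6st in cisplatin replicate 1 stood at 334 CPM, and the other 4 cisplatin kidneys at 282 to 290 CPM. Stat3 in cisplatin replicate 5 stood at 230 CPM, and the other 4 at 253 to 257 CPM.

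For 4 genes the KW6002 effect differed between mice with and without cisplatin by the interaction test of edgeR. The difference was -1.68 on the log2 scale for Clcf1, -0.82 for Il6ra, -0.28 for Il6st and -1.01 for Osmr. Within the 500s series the Il6st difference did not pass (-0.24, adjusted p = 0.109). Without cisplatin the KW6002 changes of these genes ran from 0.02 (Il6ra) to 0.20 (Osmr), and with cisplatin from -1.53 (Clcf1) to -0.23 (Il6st).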

How the results depend on the processing

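Of 1418 values of the 9 genes recomputed under alternatives, 1350 kept their direction and their side of the threshold, 25 lost and 16 gained a call, and 27 changed sign. Counts of members that changed ranged from 7 to 9 with cisplatin and from 5 to 8 between both drugs and cisplatin. With at least 10 counts required in every library, the other cytokine genes that changed numbered 0 with cisplatin and 1 between both drugs and cisplatin, since most were no longer tested, and other receptor genes 1 with cisplatin. With the fat covariate other receptor genes that changed between both drugs and cisplatin numbered 1, and 1 to 2 when single libraries were left out, with 1 without cisplatin replicate 1. Signs changed for values near 0: Il6st with both drugs over vehicle was 0.07 under library size scaling, where the median gene of that comparison stands at 0.155 (0.204 for cisplatin against vehicle), and Stat3 between both drugs and cisplatin was 0 without a filter and 0.02 with the replicate block (-0.04 to 0.02 with single libraries left out). For KW6002 against vehicle, Il6ra was 0 with the label series as covariate, and within the 500s Lif was 0.25, Osmr -0.03, Lifr -0.07 and Socs3 -0.01, and the Il6 interaction was 1.25. With single libraries left out, KW6002 against vehicle ran from -0.06 to 0.09 for Il6ra, -0.16 to 0.35 for Socs3, -0.27 to 0.05 for Lif, 0 to 0.1 for Stat3, and the Il6 interaction from -1.11 to 0.36.

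Deviations of same-numbered replicates from their group means had a median correlation of 0.00846 (31 pairs, -0.175 to 0.405, 7 over 0.1). For other pairs the median was -0.00142, and 8 of 22 libraries were closest to their own number. These values do not settle whether the numbers pair mice. Under the replicate block Il6 between both drugs and cisplatin was -1.22 (adjusted p = 0.0883). Il6 lost that call without a filter (adjusted p = 0.0637), with only the 2 groups (0.0787), within the 500s (0.0723) and with the fat covariate, and Il6st with cisplatin lost its call without a filter (0.081) and with the label series as covariate (0.187). Lifr with both drugs over vehicle lost its call under library size scaling (0.488) and with only the 2 groups (0.0559). The causes were not tested. Depth limits Il6, with 0 to 2 counts in untreated kidneys, whose change with cisplatin was 5.95 with the label series as covariate.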
